A study of Bos taurus with 8 samples.

Results

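Glycolysis, glucose uptake and the fate of pyruvate were followed in the rumen epithelium of cattle through 32 named genes: glucose transporters, the enzymes of each glycolytic step, the enzymes that set the pace of phosphofructokinase, lactate dehydrogenases, and the pyruvate dehydrogenase complex with its kinases. The members were picked by gene name as parts of the pathway, with earlier results of these data known. Each was represented by its brightest probe among those well above background on 4 or more of 8 arrays. A probe was found for 31 of the 32 genes, none for HK2, and 25 genes passed the filter, among 10207 genes tested on the array. The filter left 6 genes untested (SLC2A3, PFKM, PFKFB1, ENO2, LDHB and PDK2), whose values are given separately. Just inside it were PGAM2, above background on 4 arrays, and PFKFB4, on 5, and just outside it were ENO2, on 3 arrays, and PFKM, on 2.

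The animals were rumen-fistulated Holstein bulls aged 7.4 ± 0.3 months that weighed 215.2 ± 20.4 kg. All ate a high-grain diet. In the control group it held corn flakes, and in the WP group wood kraft pulp, a purified wood fibre, stood in for 50% of those corn flakes. Per the series text, 5 bulls crossed over after 14 days on a diet with no wash-out. Arrays of 4 of them, calves 21, 23, 24 and 25, were analysed here, 1 array per calf and diet. Which diet a calf received first was not stated in the labels, so diet, period and carry-over cannot be told apart within a calf. Total RNA of 500 ng was labelled with Cy3.

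Glycolysis takes up glucose through transporters, traps it with hexokinase, commits it at phosphofructokinase, splits it with aldolase and gains ATP at the phosphoglycerate kinase and pyruvate kinase steps. Pyruvate then either becomes lactate or enters mitochondria through pyruvate dehydrogenase, which pyruvate dehydrogenase kinases switch off. In ruminants, microbes ferment most dietary carbohydrate to short-chain fatty acids before the animal can absorb glucose. The rumen epithelium is known to burn these acids, butyrate above all, while it also takes up glucose and releases lactate.

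The probes read short stretches of these transcripts, and a few of them show what was measured. Coordinates are those of the array's files on bovine build UMD 3.1. The probes of PFKFB4 and PGK1, members that were lower on the WP diet in every calf, are shown first. The 60 bases of the PFKFB4 probe are spread over 423 bases of genome, chr22:51913759-51914181 on the plus strand, and those of PGK1 lie together at chrX:79285359-79285418 on the minus strand.
PFKFB4: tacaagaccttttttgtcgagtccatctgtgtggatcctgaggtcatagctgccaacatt
PGK1: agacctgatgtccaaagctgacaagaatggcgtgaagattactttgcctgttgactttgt
Pyruvate kinase is shown because its probe was designed on the muscle-type messenger of PKM, at chr10:18967821-18970213 on the minus strand. Whether it also binds the other splice form of PKM was not tested.
PKM: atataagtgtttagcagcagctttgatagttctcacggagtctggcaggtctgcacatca
GAPDH had 8 probes. The one farthest from the transcript's 3′ end, within chr5:104239604-104239754 on the minus strand, and 30 bases of the one nearest to it, within chr5:104237706-104237765, are set side by side with a like stretch of the ALDOA probe, within chr25:26470494-26470553 on the minus strand. Capitals mark AATAAA, the signal that commonly stands shortly before the end of a messenger.
GAPDH, far from the 3′ end: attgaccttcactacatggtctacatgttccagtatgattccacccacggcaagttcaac
GAPDH, near the 3′ end: ttgtgtaccatcAATAAAagtaccctatac
ALDOA: tccagcctactgccAATAAAcagctattta
The motif AATAAA, searched on the probe's own strand, was present in the probes of 7 of the 25 tested members (28%) and in 11.5% of all tested probes.

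A level here is log2 of the processed spot signal minus the array's 75th percentile, so that 0 is a probe as bright as that percentile. Levels of different probes are not comparable with each other. Array values are given in the order calf 21, 23, 24, 25. A difference is WP minus control within a calf, as the mean ± SD over 4 calves. No member passed an adjusted p of 0.05 with limma and a calf block, and neither did any of the 10236 probes tested (0%), the smallest adjusted p being 0.673. The members with the lowest differences were PGK1, PFKFB4, ALDOC, ENO1, HK1 and PGAM1, all between -0.40 and -0.31. On average 16 of the 25 tested members (64%) were lower on the WP diet and 9 were higher, whereas 36.7% of all tested probes were lower and 63.3% higher. The median difference of the members was -0.12, against 0.08 over all tested probes. The background share depends on the scaling: with quantile scaling 18 members (72%) and 52.5% of all tested probes were lower, and with the normexp background correction 14 members (56%) and 30.4%. In bulk tissue, fewer cells of a type and less RNA per cell cannot be told apart.

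Brightness moved with this count. Of the 13 members whose mean level was above the 75th percentile, 11 were lower (84.6%, median -0.18), where 51.2% of all tested probes that bright were lower (median -0.0053). Of the 12 dimmer members, 5 were lower (41.7%, median 0.055), where 28.5% of all dimmer probes were lower (median 0.16). This split was chosen after the values were seen.

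The calves did not all go the same way. In calf 21, 19 of the 25 members were lower on the WP diet, with a median of -0.27. Calf 24 had 15 lower members and a median of -0.15, and calf 25 had 17 and a median of -0.12. Calf 23 stood apart with 10 lower members and a median of 0.025. Over all tested probes the medians of the same calves were 0.11 for calf 21, 0.028 for calf 23, 0.14 for calf 24 and -0.016 for calf 25. Lower in 4 of 4 calves were HK1, PFKFB4, ALDOA and PGK1, 4 of 25 members against 5.83% of all tested probes. No tested member was higher in 4 of 4 calves, against 11.3% of all tested probes. An unadjusted p under 0.05 was reached by 3 members in the lower direction (HK1, PFKFB4 and PGK1), where 1.87% of all tested probes did so, and by none in the higher direction, where 4.98% did. PFKFB4 passed the filter on dim probes through its control arrays, so it lends no support to these counts. With quantile scaling the split of all probes at that threshold turned from 191 lower and 510 higher to 336 lower and 192 higher.

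The spread between animals was large beside these differences. For 23 of the 25 members the range over the 4 control arrays exceeded the mean diet difference, and 22 had a 95% interval that held 0. The median half-width of that interval was 0.40 on the log2 scale. The SD of the within-calf differences ran from 0.045 for PDHB to 1.41 for PGAM2, with a median of 0.30, against 0.35 over all tested probes.

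**Figure D1:**
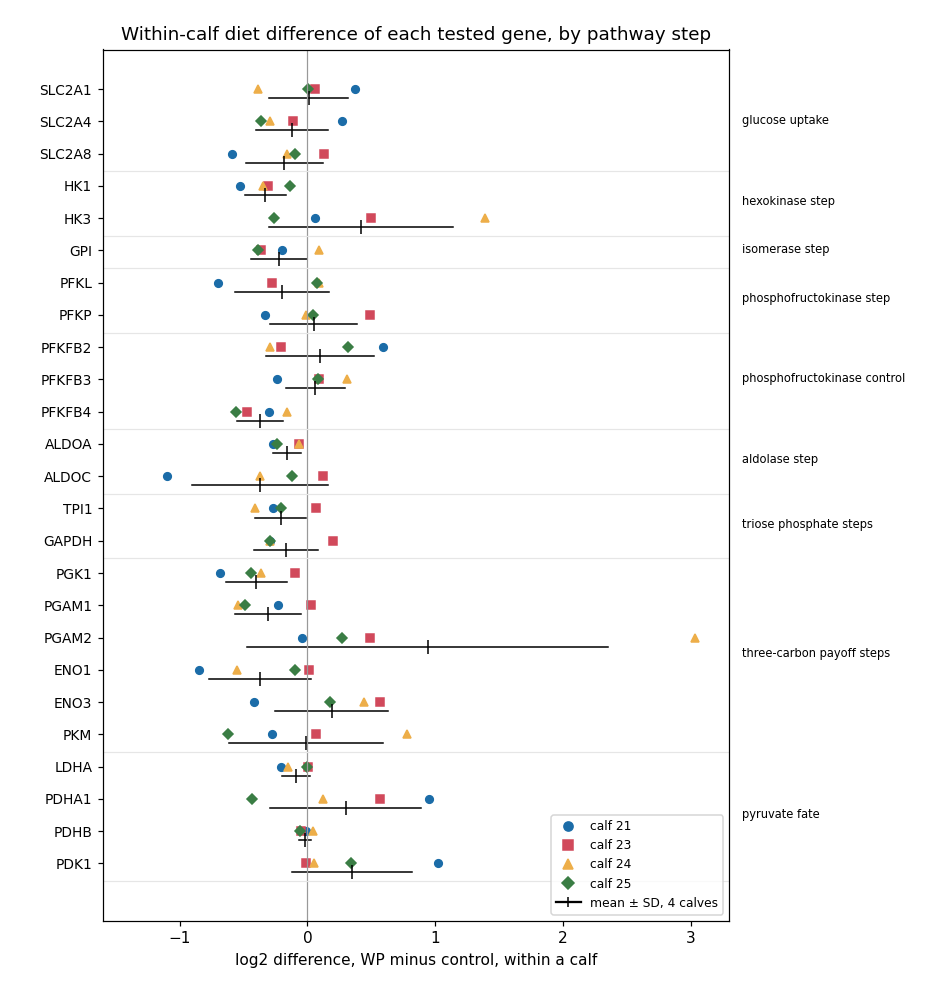
Within-calf difference, WP minus control, in log2 units on the x axis, for the 25 tested genes ordered by pathway step on the y axis. Symbols are the 4 calves and the bar under them the mean ± SD. The means of SLC2A4, SLC2A8, HK1, GPI, PFKL, PFKFB4, ALDOA, ALDOC, TPI1, GAPDH, PGK1, PGAM1, ENO1, PKM, LDHA and PDHB lie left of 0. The largest single value, in PGAM2, belongs to calf 24.

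Glucose uptake was measured through 3 transporters. SLC2A1 encodes GLUT1, the basal facilitative transporter found in most cells, and its mean level was 1.34 on the WP diet and 1.32 on the control diet. Its difference was 0.011 ± 0.31, with a 95% interval from -0.40 to 0.42. SLC2A8 encodes GLUT8, an intracellular hexose transporter, and had the smallest p of this step (limma, unadjusted p = 0.302). Its level was -0.019, -0.16, 0.076 and -0.14 on the WP diet and 0.57, -0.28, 0.23 and -0.037 on the control diet. The diets overlapped, and the control arrays held both the highest and the lowest value. Its difference was -0.18 ± 0.30, lower in 3 of 4 calves, and -0.043 without calf 21. SLC2A4, the insulin-responsive GLUT4 of muscle and fat, differed by -0.12 ± 0.28 over levels from -2.87 to -2.29.

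SLC2A3, the high-affinity GLUT3, was well above background on the WP array of calf 24 alone, at -1.81. Its other 7 values lay between -7.51 and -5.49. The WP readings of the other calves were not above background, so no bound on the fold between diets is given. On the WP array of calf 24 the negative control spots had a median signal of 4.06, where the other 7 arrays had 1.20 to 1.90. The part of this in the SLC2A3 values was not tested.

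Hexokinase 1, which traps glucose in the cell as glucose-6-phosphate, was the single one of the 25 tested members whose diets did not overlap, where 1.34% of all tested probes had this in the lower direction and 3.47% in the higher one. HK1 read 4.38, 4.41, 4.21 and 4.34 on the WP diet and 4.91, 4.72, 4.56 and 4.48 on the control diet. Every WP array was below every control array. The difference was -0.33 ± 0.16, or 1.26-fold higher on the control diet, with a 95% interval from -0.65 to -0.017 (limma, unadjusted p = 0.0421, adjusted p = 0.673). The HK1 probe lies at chr28:25924965-25925024 on the plus strand. HK3, the hexokinase best known from white blood cells, differed by 0.42 ± 0.72. Most of this came from calf 24, whose WP array read -1.86 and control array -3.25, and without that calf the difference was 0.10. HK2 had no probe under that name.

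The next enzyme, glucose-6-phosphate isomerase (GPI), turns that product into fructose-6-phosphate. Its level was -0.99, -1.25, -0.67 and -1.27 on the WP diet and -0.79, -0.89, -0.76 and -0.88 on the control diet. The control arrays lay within 0.13 of each other, and 3 of the 4 WP arrays lay below all of them. The WP array of calf 24 was the highest of all 8. The difference was -0.22 ± 0.22 (limma, unadjusted p = 0.171).

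Phosphofructokinase, the committed step of glycolysis, has liver, platelet and muscle forms. The liver form PFKL read 3.02, 3.04, 3.36 and 3.33 on the WP diet and 3.72, 3.31, 3.27 and 3.25 on the control diet. Its calves divided evenly: calves 21 and 23 were lower on the WP diet by 0.70 and 0.28 in size, and calves 24 and 25 were higher by 0.094 and 0.073. The WP arrays of calves 21 and 23 stood in slide row 1 and those of calves 24 and 25 in row 2. PFKL was the 1 member of 25 (4%) split by slide row in either direction, where 21.2% of all tested probes were split in one direction or the other. Its mean difference was -0.20 ± 0.37, and -0.036 without calf 21. PFKP, the platelet form, differed by 0.049 ± 0.34.

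PFKM, the muscle form, was above background on 2 WP arrays and on no control array. It read -5.02, -5.22, -3.55 and -5.15 on the WP diet and -6.68, -5.53, -6.06 and -5.38 on the control diet. The WP value was the higher one in each calf, with calf 24 again the highest. In calves 23 and 25 the WP readings lay below the lowest level that counted as above background there, -4.71 and -5.14. No bound on the fold between diets is therefore given. The WP array of calf 24 was the one with brighter negative control spots, and the part of this was not tested. PFKM did not enter the limma test.

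The PFKFB enzymes make and remove the small molecule that activates phosphofructokinase most strongly. PFKFB4 read -5.02, -4.90, -4.42 and -5.02 on the WP diet and -4.72, -4.43, -4.27 and -4.46 on the control diet. It was lower on the WP diet in each calf, although the diets overlapped between animals. The measured difference was -0.37 ± 0.18. The probe was dim, with a signal over background in all 4 control samples but in the WP sample of just 1 calf. It passed the filter through the diet where it was high, its WP readings are mostly not above background, and with the normexp background correction the difference was 0.13, in the other direction. PFKFB2 and PFKFB3 differed by 0.10 ± 0.42 and 0.061 ± 0.23. PFKFB1 was above background on no array, with values from -7.66 to -6.11.

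Aldolase splits the six-carbon sugar. ALDOA, the form of most tissues, read 6.95, 6.95, 7.06 and 6.97 on the WP diet and 7.22, 7.02, 7.13 and 7.21 on the control diet. It was lower on the WP diet in each calf, and the overlap came from the WP array of calf 24 and the control array of calf 23. The difference was -0.16 ± 0.11, with a 95% interval from -0.45 to 0.13. ALDOC, known as the brain form, had the smaller p of the step (limma, unadjusted p = 0.163). It read -0.15, -0.13, -0.74 and -0.58 on the WP diet and 0.95, -0.25, -0.37 and -0.45 on the control diet. Calf 21's control array stood far above the rest. The mean difference was -0.37 ± 0.53, and -0.13 without calf 21.

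**Figure D2:**
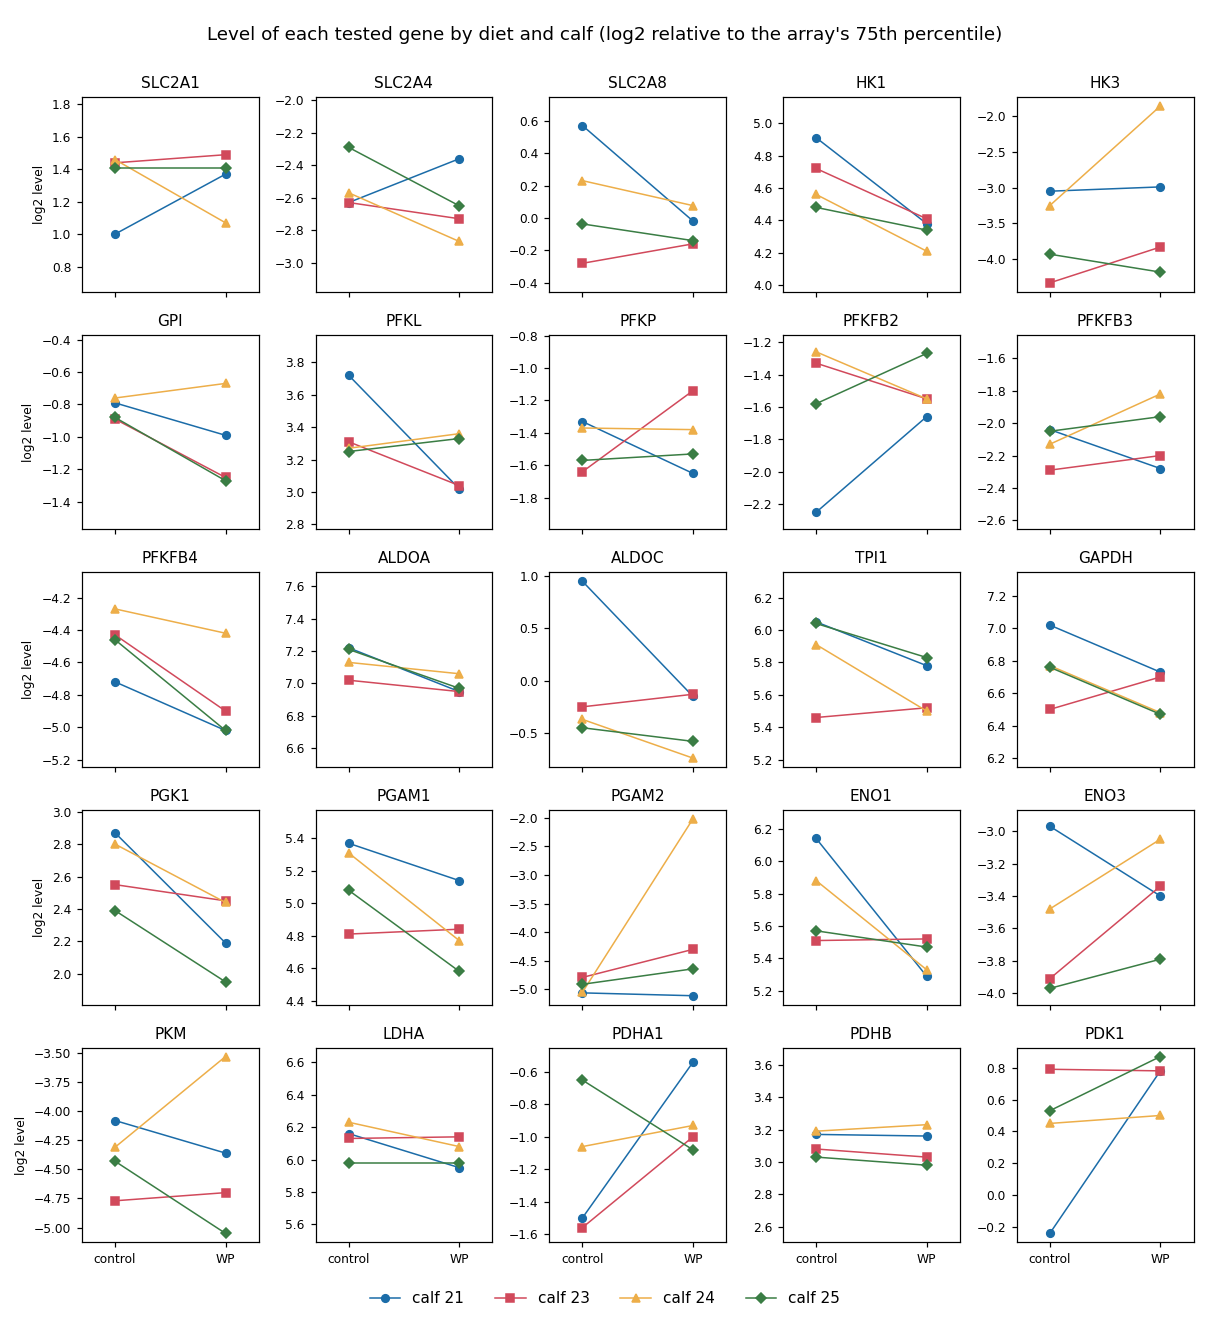
Level of each of the 25 tested genes on the control and WP diets, as log2 relative to the array's 75th percentile on the y axis, with 1 line per calf. Panels have different y ranges. The 4 lines of HK1, PFKFB4, ALDOA and PGK1 all slope down from control to WP, and PGAM2 shows 1 line, that of calf 24, which climbs from -5.05 to -2.02.

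Triose phosphate isomerase (TPI1) makes both products of aldolase usable. It read 5.78, 5.52, 5.50 and 5.83 on the WP diet and 6.05, 5.46, 5.91 and 6.04 on the control diet. Calf 23 was higher on the WP diet, by 0.067, and the other 3 calves were lower. The difference was -0.21 ± 0.20 (limma, unadjusted p = 0.177).

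GAPDH, the dehydrogenase that is often taken as a reference gene, was the one member with several probes. Its brightest probe read 6.73, 6.70, 6.48 and 6.47 on the WP diet and 7.02, 6.50, 6.77 and 6.76 on the control diet, a difference of -0.17 ± 0.25. The 3 calves other than calf 23 were each lower on the WP diet by 0.29 in size. Along the gene the difference grew with distance from that probe, which is the one nearest the 3′ end. It was -0.17 ± 0.27 at the probe 24 bases upstream, -0.32 ± 0.27 and -0.35 ± 0.28 at 221 and 237 bases, -0.37 ± 0.29, -0.40 ± 0.33 and -0.40 ± 0.27 at 1300, 1303 and 1306 bases, and -0.44 ± 0.28 at 1898 bases along the genome. The 4 farthest probes were lower on the WP diet in 4 of 4 calves. Within several of these groups the probes overlap in position, so they are not independent measurements. In the pair nearest the 3′ end the longest identical stretch was 19 bases. Probes that overlap in position also differ from each other at some bases, and how well each one matches GAPDH was not tested.

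The mean of the 6 upstream probes minus the mean of the 2 nearest the 3′ end was -3.71, -3.64, -3.42 and -3.83 on the WP diet and -3.34, -3.37, -3.42 and -3.63 on the control diet. The difference between diets was -0.21 ± 0.16, and it was -0.37, -0.27, -0.0009 and -0.20 in the 4 calves. An exact two-sided sign-flip permutation test over the 4 calves gave p = 0.125, the smallest value that 4 pairs allow. The summary was chosen after the probes' values were seen. RNA integrity was not analysed here, so the part of RNA quality or of the labelling reaction in it was not tested.

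**Figure D3:**
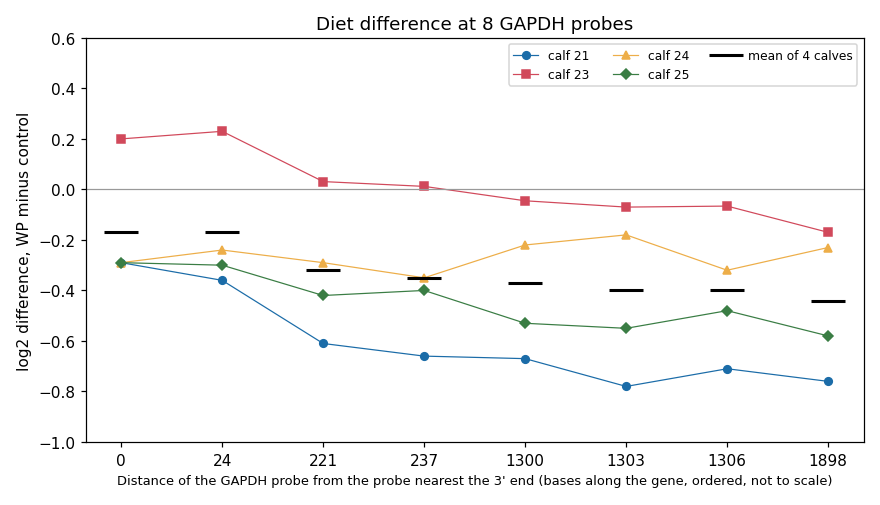
Difference between diets (log2, WP minus control, y axis) at the 8 GAPDH probes, ordered by distance in bases from the probe nearest the 3′ end (x axis, ordered but not to scale). Symbols are calves and black bars the mean of 4 calves. The mean goes from -0.17 at the 3′ probe to -0.44 at the farthest probe, and the calves keep a wide spread throughout.

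Phosphoglycerate kinase 1 (PGK1), the first ATP-yielding step, had the lowest mean difference of the tested members. It read 2.19, 2.45, 2.44 and 1.95 on the WP diet and 2.87, 2.55, 2.80 and 2.39 on the control diet. Each calf was lower on the WP diet, by 0.10 in calf 23 and by up to 0.68 in calf 21 in size, while the diets overlapped between animals. The difference was -0.40 ± 0.24, or 1.32-fold higher on the control diet, with a 95% interval from -0.75 to -0.037 (limma, unadjusted p = 0.0362, adjusted p = 0.673).

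The mutase and enolase steps follow. PGAM1 read 5.14, 4.84, 4.77 and 4.58 on the WP diet and 5.37, 4.81, 5.31 and 5.08 on the control diet, a difference of -0.31 ± 0.26 that was lower in 3 of 4 calves. ENO1, the enolase of most tissues, read 5.29, 5.52, 5.33 and 5.47 on the WP diet and 6.14, 5.51, 5.88 and 5.57 on the control diet, a difference of -0.37 ± 0.40. Calves 21 and 24 carried most of it, with -0.85 and -0.55, and calf 23 was at 0.0086. Without calf 21 the ENO1 difference was -0.21. In 7 members, SLC2A8, ALDOC, TPI1, GAPDH, PGAM1, ENO1 and LDHA, calf 23 alone was not lower on the WP diet. ENO1 and LDHA were close to no difference in that calf, at 0.0086 and 0.0062. The share of all tested probes with this pattern was not computed, so the count is not a result about these genes.

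PGAM2 and ENO3 are the muscle-type forms of these steps. PGAM2 differed by 0.94 ± 1.41, almost all of it from calf 24 with 3.03, and by 0.24 without that calf. It was above background on 2 arrays of each diet. ENO3 differed by 0.19 ± 0.44. ENO2, the neuronal form, read from -5.64 to -4.35 and was above background on 3 arrays. Beside PGAM2, the striated muscle markers ACTA1, CKM and MB that could be tested had a mean level of -2.85 on the WP array of calf 24 and of -4.22 to -3.72 on the others. The other 10 of 13 listed striated muscle markers did not pass the filter or had no probe. On the WP array of calf 24 the negative control spots were also brighter, with a median of 4.06 against 1.20 to 1.90 on the others. The lowest level that counted as above background was higher there than on any other array, at -4.13. The part of muscle cells or of this brighter background in the PGAM2 value was not tested.

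PKM, which ends glycolysis with pyruvate and ATP, read -4.36, -4.70, -3.53 and -5.05 on the WP diet and -4.08, -4.77, -4.31 and -4.43 on the control diet on its muscle-type probe. Its signal exceeded background in 3 WP samples and in all 4 control samples. The calves divided evenly in direction and the difference was -0.012 ± 0.60.

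Pyruvate's fate was read through lactate dehydrogenase, pyruvate dehydrogenase and its kinases. LDHA, the form that favours lactate, stayed within a range of 0.27 over all 8 arrays, from 5.95 to 6.23. Its difference was -0.089 ± 0.11, with a 95% interval from -0.38 to 0.20. LDHB, the form of oxidative tissues, was above background only on the WP array of calf 24, at -3.37, with its other values between -7.72 and -6.33. PDHB, the beta subunit of the first pyruvate dehydrogenase enzyme, had the narrowest differences of all members, -0.02 ± 0.045, and its interval from -0.30 to 0.26 was set by the pooled error of the model.

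PDHA1, the alpha subunit of the same enzyme, differed by 0.30 ± 0.59, and by 0.087 without calf 21. It was higher on the WP diet in 3 of 4 calves, by 0.95 in calf 21, and lower in calf 25 by 0.43 in size. PDK1, a kinase that switches the complex off, had the smallest p of this step (limma, unadjusted p = 0.154). It read 0.78, 0.78, 0.50 and 0.87 on the WP diet and -0.24, 0.79, 0.45 and 0.53 on the control diet. Calf 21's control array was the low one, and the difference of 0.35 ± 0.47 was 0.13 without that calf. PDK2 was above background on no array.

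Other genes around the pathway were taken from fixed lists, and none of them passed an adjusted p of 0.05. Of 7 other hexose transporters tested, 1 was lower and 6 were higher on the WP diet, with a median of 0.30. SLC2A6, which encodes GLUT6, was higher in 4 of 4 calves by 0.31 ± 0.28, and SLC5A2, a sodium-coupled glucose transporter, differed by 0.38 ± 0.64. The medians of this list were 0.23 and 0.28 in calves 21 and 23, 0.89 in calf 24 and -0.36 in calf 25. Among 19 other genes of glycolysis, lactate transport and the pyruvate dehydrogenase complex, 10 were lower and 9 higher, with a median of -0.021. GOT2, a mitochondrial aspartate aminotransferase, was lower in 4 of 4 calves by 0.24 ± 0.13 in size, and GPD1, the cytosolic glycerol-phosphate dehydrogenase, differed by 0.47 ± 0.56.

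The side routes of glucose-6-phosphate were the pentose phosphate pathway and glycogen. In the pentose phosphate pathway 6 of 10 tested genes were lower and 4 higher, with a median of -0.11. TALDO1, the transaldolase that links this route back to glycolysis, was lower in 4 of 4 calves, by 0.30 ± 0.23 in size, and RPIA, a ribose-phosphate isomerase, differed by -0.48 ± 0.66. Glycogen genes were lower in 4 and higher in 8 of 12 cases, with a median of 0.06. STBD1, a glycogen-binding protein, had a measured difference of 1.31 ± 0.89, but its signal exceeded background on the WP diet in 3 calves and on the control diet in 1, so most of its control readings are not above background. PHKB, a subunit of phosphorylase kinase, differed by 0.17 ± 0.22.

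Downstream of pyruvate, 13 of 19 tested citrate cycle genes were lower and 6 higher, with a median of -0.059. This list was uneven between calves: all 19 were lower in calf 25, with a median of -0.40, while calf 21 had a median of 0.19. SDHA, the catalytic subunit of succinate dehydrogenase, was lower in 4 of 4 calves by 0.30 ± 0.16 in size, and SDHD, a membrane subunit of the same enzyme, differed by 0.22 ± 0.38. Of 5 tested genes of pyruvate carboxylation and gluconeogenesis, 2 were lower and 3 higher. PC, which carboxylates pyruvate, differed by 0.58 ± 0.79, and FBP1, which opposes phosphofructokinase, by -0.27 ± 0.65.

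Regulators of glucose use showed no shared direction. Of 24 tested hypoxia response genes outside glycolysis, 14 were lower and 10 higher, with a median of -0.031. BNIP3L, a mitophagy receptor of this list, was lower in 4 of 4 calves. It read between 2.33 and 3.35 on the WP diet and between 3.07 and 4.29 on the control diet, a difference of -0.86 ± 0.58 (limma, unadjusted p = 0.0159, adjusted p = 0.673). EGLN2, an oxygen-sensing prolyl hydroxylase, was higher in 4 of 4 calves by 0.82 ± 0.85, as were 11.3% of all tested probes in direction. It read -2.65 on the WP array of calf 24, the one with brighter negative control spots. The other WP arrays read -4.34 to -3.97 and the control arrays -4.83 to -4.37. The part of that brighter background was not tested. Among 15 tested genes of insulin, AMPK and MYC control, 5 were lower and 10 higher, with a median of 0.17. ARRDC4 and MLX, which act with the cell's glucose sensors, differed by -0.33 ± 0.35 and 0.19 ± 0.16.

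**Figure D4:**
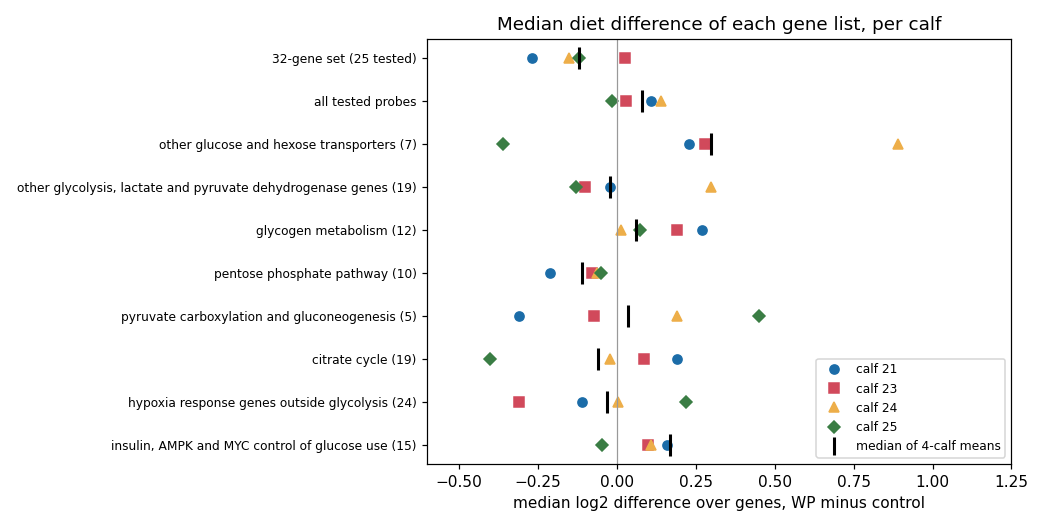
Median log2 difference (WP minus control, x axis) over the tested genes of each list (y axis, number of genes in brackets). Symbols are calves and black bars the median of the 4-calf means. The members' calf medians run from -0.27 to 0.025, and the citrate cycle runs from -0.40 in calf 25 to 0.19 in calf 21.

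The label of the tissue was checked against defining genes. All 18 rumen epithelium markers with a tested probe, keratins, desmosome genes and SLC16A1 among them, were above background on 8 arrays, while KRT4 and KRT13 were not tested. Their mean level was 2.52 to 2.93 on the WP diet and 2.53 to 2.96 on the control diet, and 9 were lower and 9 higher. Markers of supporting tissue were mostly higher on the WP diet on average. Of all tested probes, 28.5% of those below the 75th percentile were lower, and 51.2% of those above it. Some of these markers lay above it, COL6A1, COL3A1, MYLK and CLDN5 among them. Smooth muscle markers were higher in 6 of 6 cases (mean level -1.79 to -0.49 on WP arrays, -1.70 to -1.49 on control arrays), fibroblast markers in 10 of 11 (-0.77 to 0.045 and -1.70 to -0.19) and endothelial markers in 10 of 11 (-2.16 to -1.32 and -2.69 to -1.79). Calf 21, whose members had the lowest median, went the other way: 10 of 11 fibroblast markers were lower there (median -0.64) and 8 of 11 endothelial markers (median -0.30). Neutrophil and macrophage markers divided evenly on average, with 4 of 8 lower and mean levels from 0.81 to 1.43 and from 0.97 to 1.86, and 7 of the 15 listed were not tested, S100A9, MPO and ELANE among them. In calf 21, 7 of these 8 were lower on the WP diet (median -0.74), and that calf's control array had the highest mean level of all 8 arrays. Of 9 tested T, B and plasma cell markers, 6 were lower, and calf 21 again had the lowest median, -0.61, and the highest mean level, -1.81 on its control array against -3.27 to -2.34 on the others. The part of such cells in the members' differences was not tested.

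Signal was adequate for most members: 22 of the 25 were above background on all 8 arrays and no spot of any member was saturated. The arrays had 9314 to 11990 of 15008 probes well above background. The number of arrays limits the precision. Data were simulated with each probe's residual spread from the fit, as independent normal noise without array-wide shifts. On them the test recovered 65.8% of the probes given a 4-fold change, 30.2% of those given 2-fold and 0.585% of those given 1.5-fold.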

How the data were processed

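Rumen epithelium RNA from 4 calves on 2 diets was measured on 8 single-colour Agilent arrays of design 072598, all on 1 slide. The scanner output deposited by the authors gives an intensity per spot, including a processed signal corrected for background by Agilent Feature Extraction, version 11.0.1.1 per the file headers (the submitters' processing notes name 9.5). A series table from the authors, used as an alternative, is on the log2 scale. Compared array by array with the processed signal, it differed by a constant shift (slopes 0.99997 to 1, medians -3.10 to -2.27), so scale and direction are known.

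From the scanner files, log2 of the processed signal minus each array's 75th percentile was computed, without 536 control and 97 outlier spots. Spots of a probe were averaged, and 10236 of 15008 probes (68.2%) well above background on 4 or more arrays were tested with limma 3.58.1 in R 4.3.3, with the calf as a block and Benjamini-Hochberg adjustment over all of them. Calf numbers pair arrays because they name the same animal. The correlation of paired deviations was 0.00897, 0.195, 0.06 and 0.0475 for calves 21, 23, 24 and 25. Symbols were updated through RefSeq (assembly ARS-UCD2.0, names only): 11194 probes matched by accession, 3085 by symbol, 38 by an older symbol, and 691 kept the array's name. All alternatives of scaling, background correction, filter, block, slide row and left-out calf were run again in full. The fit was tested on simulated data in 5 runs.

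The members, lists and rules were chosen with earlier results of these data known. Array values are given for members of 1 direction in 4 of 4 calves and for the member of smallest p of each step, and for GAPDH, PGAM1, ENO1, PFKM and PKM, which were added after their values were seen. From each other pathway list the 2 genes of smallest p are named. Whether a probe lies in an exon or UTR of the current annotation was not analysed here, and protein and promoter sequences were not used here.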

Additional observations from a re-analysis of the deposited data

Results flagged for a closer look

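Among the 50 groups of 4 arrays examined, 1 per tested member and diet, 4 held an array far from the others of its diet. Normally distributed values would give about 1 in 20, and the share over all tested probes was not computed. All 4 outlying arrays were control arrays, and 3 were the control array of calf 21. That array was the highest or lowest of its diet for 56.4% of all tested probes. SLC2A1 (GLUT1) read 1.0 there, below 1.41 to 1.46 on the other control arrays. PFKL, the liver phosphofructokinase, read 3.72 there, above 3.25 to 3.31. ALDOC, aldolase C, read 0.95 there, above -0.45 to -0.25. In calf 25, SLC2A4 (GLUT4) read -2.29 on the control diet, above -2.63 to -2.57 on the other control arrays.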

How the results depend on the processing

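No member and no probe passed an adjusted p of 0.05 under the alternatives that were tested (the mean over a gene's probes was computed for the members' values only, with no test), where the smallest adjusted p of all probes lay between 0.351 and 0.854. The number of members lower on the WP diet, 16 in the report, was 14 to 18 under the other settings and 15 to 18 with a calf left out, and the median was -0.19 to -0.012 and -0.13 to -0.061. Without a filter on dim probes 16 members were lower and 15 higher. With no replicate block, so that the pairing by calf was ignored, 0 probes passed. The 16 lower members and their median of -0.12 could not change in that setting, as each calf had both diets. At an unadjusted limma p under 0.05, 198 probes were lower and 560 higher, against 191 and 510 with the block. With quantile scaling, which took the median of all probes from 0.08 to -0.02, 336 were lower and 192 higher at that threshold, and with normexp 298 and 1102.

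Of 348 member values under alternatives, 20 changed sign, in 10 members. Part of the 348 could not move: in this balanced design a change of block, slide row term, prior or filter leaves a probe's difference as it is. The authors' values gave almost the same differences as the main ones. The other 15 members kept their direction throughout. These were 11 lower (SLC2A8, HK1, GPI, PFKL, ALDOA, TPI1, GAPDH, PGK1, PGAM1, ENO1 and LDHA) and 4 higher (HK3, PGAM2, PDHA1 and PDK1). With normexp, SLC2A1 was -0.014, SLC2A4 0.085, PFKFB4 0.13 and PKM 0.21. With quantile scaling, PFKP was -0.019, PFKFB3 -0.07, ENO3 -0.25 and PDHB 0.04. A slide row held the WP arrays of 2 calves and the control arrays of the other 2. Values within a row are therefore unpaired contrasts between animals, in which diet and calf cannot be told apart. Within slide row 1, SLC2A1 was -0.0016, PFKFB2 -0.18, PFKFB3 -0.15 and ALDOC 0.27, and within slide row 2 PKM was 0.14. With 1 calf left out, SLC2A1 ran from -0.11 to 0.15, PFKP from -0.10 to 0.17, PFKFB2 from -0.061 to 0.23, PFKFB3 from -0.022 to 0.16 and PKM from -0.28 to 0.19. Among the members that kept their direction, leaving out calf 21 brought PFKL to -0.036, SLC2A8 to -0.043 and PDHA1 to 0.087. The cause of these changes was not tested.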

Other observations

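Beyond the comparisons, the arrays differed in how often they held the extreme value of a member within their diet. The control array of calf 21 was the highest of the 4 control arrays for 15 of the 25 members and the lowest for 5, together 80%, against 56.4% of all tested probes. On the WP diet the array of calf 24 was the highest for 11 and the lowest for 6, together 68%, against 61.9% of all tested probes. The 7 members whose probe holds AATAAA (SLC2A8, ALDOA, ALDOC, TPI1, GAPDH, PGAM2 and ENO1) had a median difference of -0.18 with 6 lower, and the other 18 members a median of -0.016 with 10 lower. Over all tested probes the medians were 0.053 with the motif and 0.085 without it. These 2 summaries were chosen after the values were seen.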
